A study of Rattus norvegicus with 58 samples.

Results

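Synovial RNA of arthritic rats given saline for 5 days (n = 8) was compared with that of untreated arthritic rats (n = 4), to follow the course of arthritis without drug. These 12 of 58 libraries were chosen by their sample titles, with no measured value in the choice. Naive rats (n = 4) marked the healthy state toward or away from which genes moved. Female DA/OlaHsd rats aged 6 to 8 weeks had received 250 μl of pristane. Treatment time was counted from the day after a score of at least 3 was reached in each rear limb. Subcutaneous saline was given over 5 days to the group described here, and 2 shorter groups received it over 1 day (n = 4) and 3 days (n = 8). Labels name no injection for the untreated arthritic group (pristane-induced arthritis, PIA) and do not state on which day it was sampled. Strain, sex and age are described for the arthritis model and not separately for naive rats. RTD-1, a macrocyclic defensin peptide, was given to other arthritic rats at 5 mg per kg for 1, 3 or 5 days (n = 4, 8 and 8), and those libraries enter here only as a check of direction.

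Pristane is a hydrocarbon oil that provokes a T cell-dependent polyarthritis in DA rats, with an acute phase that can be followed by remission and relapse. Healthy synovium is a thin lining of fibroblast-like cells and macrophages over loose tissue with fat and vessels. In arthritis it thickens, is infiltrated by leukocytes and produces inflammatory mediators and matrix-degrading enzymes. In bulk tissue, fewer cells of a type and less RNA per cell cannot be told apart.

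The deposited table names genes by identifier only, and the reference used here paired 0 of its 16879 identifiers with a symbol. Marker genes of synovium and of other tissues were therefore not analysed here, nor could any pathway be named. Genes are described below in classes defined by their position between arthritic and naive tissue. In addition, 4 genes with large changes, chosen above a limit on level, are given by identifier.

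Between 1017275 and 6415288 reads fell in genes in the saline day 5 libraries, against 2091360 to 2536140 in untreated PIA. Deposited values were scaled to a library total larger than the reads in genes. Reads in genes were 36.9% to 49.8% of that total in saline replicates 1 to 4 and 24.5% to 37.3% in saline replicates 5 to 8. They were 40.3% to 49.7% in untreated PIA, which has no replicates 5 to 8. With this scaling the median gene lay 0.22 log2 lower at saline day 5 than in untreated PIA. With TMM factors, which centre the libraries on the bulk of their genes, it lay 0.01 log2 lower. The main counts below are therefore given with both scalings. Saline day 5 replicate 1 was sequenced more deeply than the other 7. Saline day 1 replicate 2 and saline day 3 replicate 4 were deep as well.

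After 5 days of saline, most genes that changed against untreated PIA lay nearer to their naive level. limma called 1093 of 13062 genes (8.37%), 167 higher (1.28%) and 926 lower (7.09%), at a Benjamini-Hochberg adjusted p under 0.05. With TMM scaling it called 1288 of 12971 (9.93%), 703 higher (5.42%) and 585 lower (4.51%). Both scalings called 747 genes in the same direction, 166 higher and 581 lower, and 0 genes in opposite directions. The excess of lower calls was seen with the deposited scaling and not with TMM, while 166 of the 167 genes called higher with it were also called higher with TMM. TMM scaling moved the genes of this comparison upward together, from a median of -0.22 log2 to -0.01, which favours that overlap. The smallest called change was 0.42 log2 with deposited and 0.28 log2 with TMM scaling, so opposite calls could hardly arise.

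Changes were moderate in size. Of the genes called higher with deposited scaling, 111 of 167 had risen at least 2-fold and 30 at least 4-fold, and the median fold was 2.45. Of those called lower, 290 of 926 had fallen at least 2-fold and 16 at least 4-fold, with a median fold of 1.78. With TMM scaling fewer of the called genes had changed that much, 242 of 703 higher and 142 of 585 lower by at least 2-fold, and 47 and 7 by at least 4-fold. The median folds were then 1.74 for genes called higher and 1.62 for genes called lower. Most called genes had overlapping groups: all 8 saline libraries lay above all 4 PIA libraries for 44 of the 167, and below them for 185 of the 926. Over all genes tested, such separation was seen upward in 0.559% and downward in 2.21%. With TMM scaling it held for 204 of 703 genes called higher and 180 of 585 called lower, beside 2% and 1.94% of all genes.

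The count depended on the fit and on single libraries. With only the compared groups in the fit it was 158, and with array weights 1762. Without PIA replicate 1, 2 or 4 it was 501, 250 or 274, and without saline replicate 4, 5, 7 or 8 it was 2002, 727, 541 or 691. With TMM scaling it was 488 without PIA replicate 2, 620 without PIA replicate 4 and 856 without saline replicate 5, and it stayed within 1.5 times without any of the other 9 libraries. Without the deep saline libraries the counts were 1103 with deposited and 1279 with TMM scaling.

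The replicate numbers of the saline group formed 2 sets that differed in these counts. Saline replicates 5 to 8 alone, against PIA, gave 2458 calls with deposited scaling, 102 higher and 2356 lower. Saline replicates 1 to 4 alone gave 44, 28 higher and 16 lower. With TMM scaling the excess of lower calls was gone from replicates 5 to 8, at 560 higher and 596 lower, and replicates 1 to 4 gave 176 higher and 110 lower. Tested directly, the 2 sets differed in 0 genes with either scaling (0% of genes), with 2592 genes at an unadjusted p under 0.05 in deposited and 828 in TMM scaling. limma voom also called 0. Without saline replicate 2, 3, 5 or 6 the deposited count was 13, 2, 252 or 86, in each case lower in replicates 5 to 8. Whether the replicate sets were processed separately is not given in the labels.

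**Figure D1:**
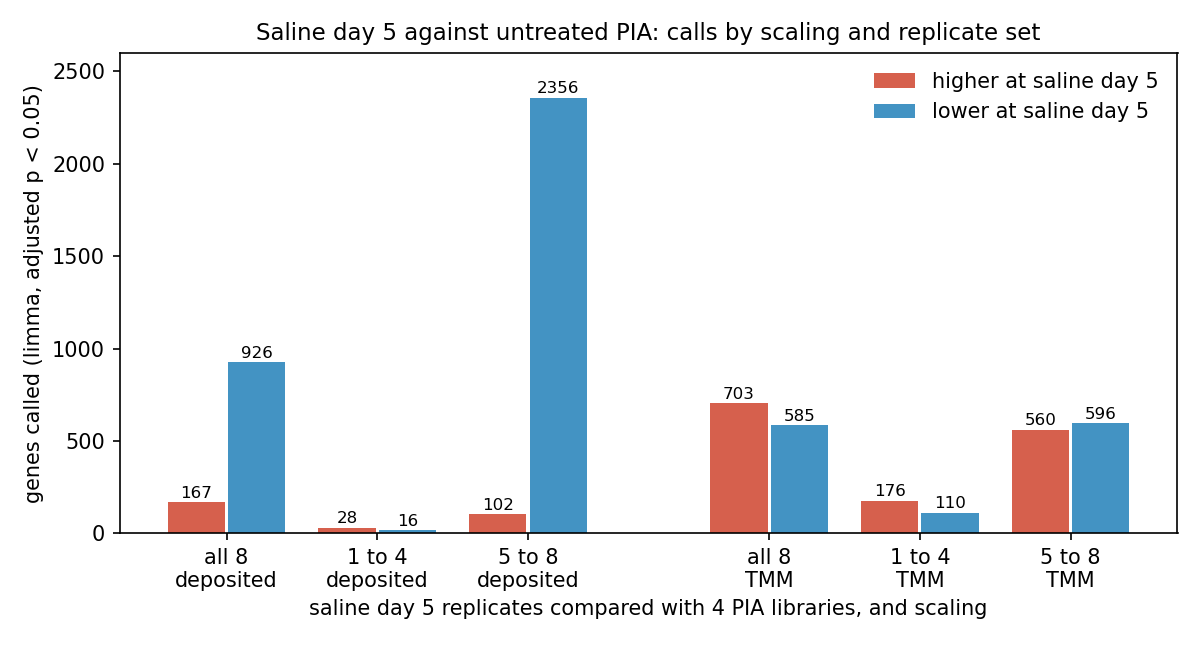
Numbers of genes called between saline day 5 and untreated PIA (limma, adjusted p under 0.05), higher or lower at day 5, for all 8 saline libraries, replicates 1 to 4 or replicates 5 to 8, with deposited or TMM scaling. The 2356 lower calls of replicates 5 to 8 with deposited scaling stand against 596 with TMM scaling.

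Called genes were then placed against naive tissue. A gene was said to move toward naive where its saline day 5 mean lay nearer to the naive mean, on the log2 scale, than its PIA mean did. With deposited scaling 985 of 1093 called genes (90.1%) moved toward naive and 108 away, and with TMM scaling 1074 of 1288 (83.4%) moved toward and 214 away. Over all genes tested, called or not, 69.3% lay nearer to naive at saline day 5 than in PIA with deposited scaling and 65.9% with TMM scaling. The PIA libraries stand in both differences, so this count is a description and was not tested. When saline day 1 took the place of PIA as the arthritic state, 936 of the 1093 genes (85.6%) lay nearer to naive at day 5, beside 71.2% of all genes tested. With TMM scaling it was 1032 of 1288 (80.1%), beside 70.4%. These genes were still chosen by saline day 5 against PIA, and the same day 5 libraries stand in the distance. This count is therefore a description too.

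Genes raised in arthritis made up most of those that fell. Of the 926 genes called lower, 780 had been called higher in PIA than in naive, and 143 had not differed by that test. Of the 167 called higher, 109 had been called lower in PIA than in naive. Against this, 39.3% of all genes had been called between PIA and naive, 27.8% higher and 11.4% lower, or 39.6%, 19.9% and 19.8% with TMM scaling. With TMM scaling 479 of the 585 genes called lower had been higher in PIA, and 479 of the 703 called higher had been lower in PIA. The PIA libraries stand in both comparisons with opposite sign, so a chance deviation in PIA raises these counts, and the shares over all genes are not what no change would give. Few genes went further in the direction of arthritis: 5 that were raised in PIA rose further and 3 that were reduced fell further, or 22 and 6 with TMM scaling. The shared PIA libraries make such calls rarer, so these small counts are a description only.

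Genes that moved toward naive stopped short of its mean or passed it. Of the 985, 191 had crossed the naive mean to the other side at saline day 5. They included all 96 that had not been called between PIA and naive, which the limits of the tests fixed beforehand. A change from PIA large enough to be called exceeded any uncalled distance from naive, so these genes could not stop short. Among genes called between PIA and naive, 78 of the 780 that fell and 17 of the 109 that rose had crossed. With TMM scaling 244 of 1074 had crossed it, including all 116 not called between PIA and naive, for the same reason. Of the 780 raised genes that fell, 376 were still called against naive at saline day 5. Of the 109 reduced genes that rose, 22 were. With TMM scaling 255 of 479 and 175 of 479 still differed from naive. Over the whole table saline day 5 still differed from naive in 3546 genes (27.1%) with deposited and 4281 (33%) with TMM scaling. A gene no longer called is not thereby shown to have reached the naive level.

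**Figure D2:**
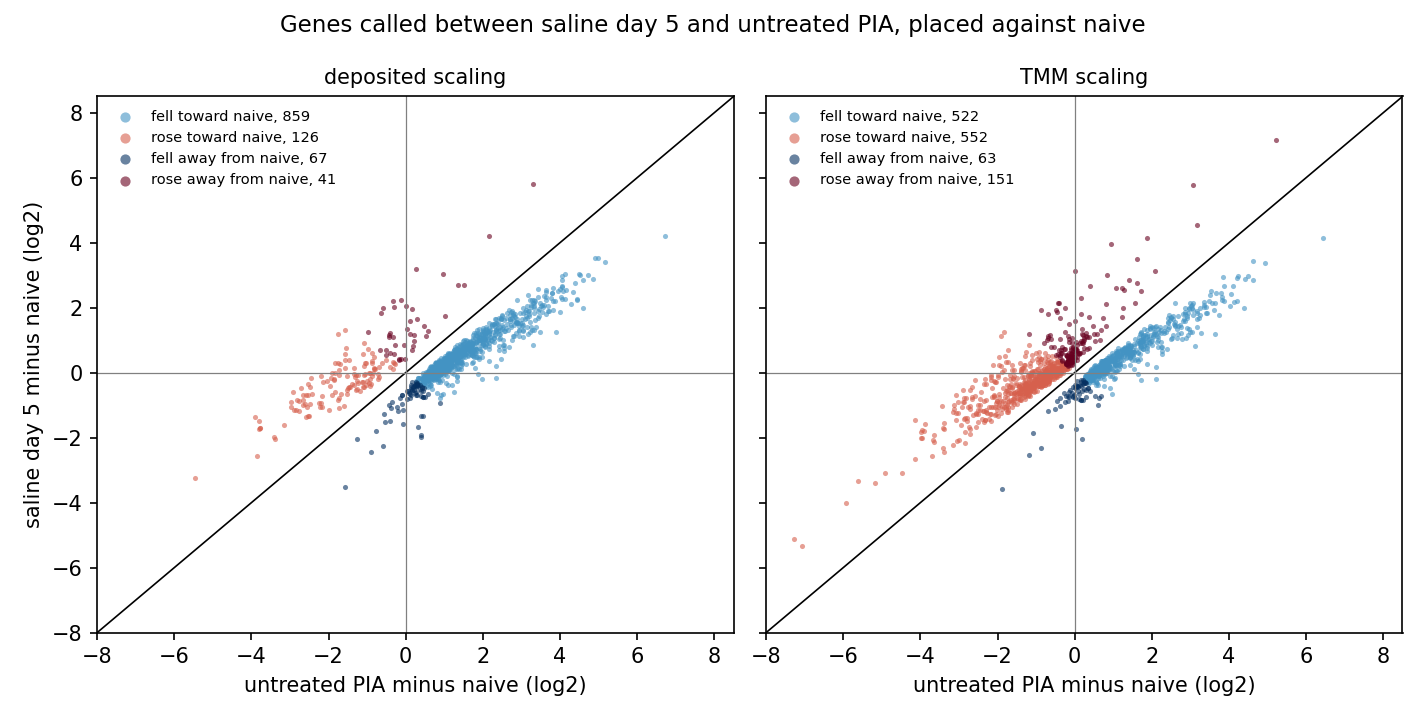
Each point is a gene called between saline day 5 and untreated PIA, with its PIA mean (horizontal) and its saline day 5 mean (vertical), both as log2 difference from naive, in deposited and TMM scaling. Points between the diagonal and the horizontal zero line moved toward naive without reaching it. With deposited scaling 859 genes fell and 126 rose toward naive, 191 of them past the naive mean.

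A smaller group of genes changed without having been called between PIA and naive. With deposited scaling there were 196, of which 53 rose and 143 fell, and 100 of the 196 ended farther from naive. With TMM scaling there were 302, of which 202 rose and 100 fell, and 186 ended farther from naive. Among genes that rose, 36 of these 53 moved away from naive, and 129 of the 202 with TMM scaling. At saline day 5, 26 of the 53 were called against naive, and 92 of the 202 with TMM scaling. They make up most of the genes that rose away from naive, 36 of 41 with deposited and 129 of 151 with TMM scaling. The definitions favour this, since a reduced gene that rises nears naive at first and PIA stands in both comparisons. Over all genes, 39.3% had been called between PIA and naive, or 39.6% with TMM scaling.

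Among genes above a limit on level, the 2 with the largest rise belonged to this group. They led 82 genes that rose in both scalings whose log2 values averaged 5 or more, with a change of the same sign in both replicate sets. The limit of 5 lay below the median level of all genes tested, 5.79 log2 over all libraries. Called genes outside these limits rose by up to 2.95 log2. In the saline day 5 libraries ENSRNOG00000020622 had 356.4, 241.3, 340.1, 491.1, 365.3, 271.2, 232.5 and 360.3 normalized reads in replicates 1 to 8. In untreated PIA it had 175.9, 26.8, 99.2 and 5.75 in replicates 1 to 4. All 8 saline libraries lay above all 4 PIA libraries, and the PIA libraries were spread widely. Naive libraries held between 17.96 and 87.5 normalized reads, which overlapped the PIA range. The change was 2.92 log2 (SE 0.597, limma adjusted p = 0.00285), or 7.59-fold on the log2(normalized reads + 1) scale, and 3.13 log2 with TMM scaling. Against naive it was 3.20 log2 (SE 0.597, limma adjusted p = 3.66e-05), whereas PIA against naive was 0.28 (SE 0.689, limma adjusted p = 0.783). Saline day 5 and PIA libraries chose the 4 named genes, so their p-values against naive are not free of that choice. Medians were 63.0 in PIA, 103.6 at saline day 1, 183.1 at day 3 and 348.2 at day 5. Without PIA replicate 4, the lowest library, the change was 2.04 log2 with a limma adjusted p of 0.0534. With only saline day 5 and PIA in the fit the limma adjusted p was 0.0710.

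ENSRNOG00000016812 behaved alike at a lower level. It had 105.8, 70.6, 82.5, 64.1, 60.0, 28.6, 45.7 and 96.1 normalized reads in saline day 5 replicates 1 to 8, against 29.3, 4.97, 10.03 and 5.75 in PIA replicates 1 to 4. Of the 8 saline libraries 7 lay above every PIA library, and replicate 6 lay just below PIA replicate 1. Naive libraries held between 8.89 and 27.1. The change was 2.60 log2 (SE 0.489, limma adjusted p = 0.00122), or 6.08-fold, and 2.80 log2 with TMM scaling. It kept its call in every alternative tried. Against naive it was 2.01 log2 (SE 0.489, limma adjusted p = 0.00124). Medians were 7.89 in PIA, 21.6 at saline day 1, 42.2 at day 3 and 67.3 at day 5. The PIA values rest on 26, 5, 9 and 6 reads. All of them lay below the limit on level, which this gene met through its saline day 5 libraries.

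The 2 genes with the largest fall among 502 that met the same conditions had both been called higher in PIA than in naive. ENSRNOG00000058437 had 1.13, 29.5, 44.8, 95.4, 12.5, 60.9, 19.4 and 19.9 normalized reads in saline day 5 replicates 1 to 8, against 151.1, 182.9, 66.9 and 258.0 in PIA replicates 1 to 4. The groups overlapped through saline replicate 4, which lay above PIA replicate 3. Naive libraries held between 6.72 and 12.4, so that most saline libraries lay between naive and PIA. Saline replicates 1, 2, 5, 7 and 8 lay below the limit on level, which this gene met through its PIA libraries. The value of saline replicate 1 rests on 3 reads. The change was -2.65 log2 (SE 0.640, limma adjusted p = 0.00907), and -2.43 with TMM scaling. PIA had stood 3.91 log2 above naive (SE 0.739, limma adjusted p = 3.15e-05), and saline day 5 stood 1.26 above it (SE 0.640, limma adjusted p = 0.145). Medians were 167.0 in PIA, 104.9 at saline day 1, 73.0 at day 3 and 24.7 at day 5. Saline replicate 1, the deep library, held the lowest value, and without it the change was -2.15 log2 (limma adjusted p = 0.0176). The deep libraries were the lowest of their groups at saline day 1 and day 3 as well, at 14.3 and 2.53. Those of days 3 and 5 lay below every naive library. The limma adjusted p was 0.0582 without PIA replicate 4 (0.0513 with TMM scaling), 0.0847 with saline replicates 1 to 4 only and 0.137 with only the 2 groups in the fit.

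ENSRNOG00000012280 had 7.13, 331.1, 70.6, 424.2, 91.3, 442.8, 87.2 and 345.9 normalized reads in saline day 5 replicates 1 to 8. In untreated PIA it had 682.0, 695.8, 610.6 and 1182 in replicates 1 to 4. All 8 saline libraries lay below all 4 PIA libraries, and all but replicate 1 lay far above naive, where values ran from 3.84 to 10.4. Of the saline libraries 4 lay between 331.1 and 442.8 and the other 4 at or below 91.3, with replicates 1 to 4 and 5 to 8 on both sides. The change was -2.52 log2 (SE 0.736, limma adjusted p = 0.0264), and -2.30 with TMM scaling. Saline day 5 stood 4.20 log2 above naive (SE 0.736, limma adjusted p = 1.33e-05). Medians were 688.9 in PIA, 586.1 at saline day 1, 179.9 at day 3 and 211.2 at day 5. The deep libraries were the lowest of their groups here too, at 35.5 on day 1 and 37.2 on day 3. The call was lost without PIA replicate 1, 2 or 4 or saline replicate 1 or 7, with limma adjusted p-values of 0.0638, 0.0745, 0.104, 0.0539 and 0.0535. It was also lost with saline replicates 1 to 4 only (0.0849), with replicates 5 to 8 only in TMM scaling (0.138) and with only the 2 groups in the fit (0.193). With TMM scaling it was lost without any PIA replicate and without saline replicate 1, 3, 5 or 7, at limma adjusted p-values between 0.0513 and 0.113.

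**Figure D3:**
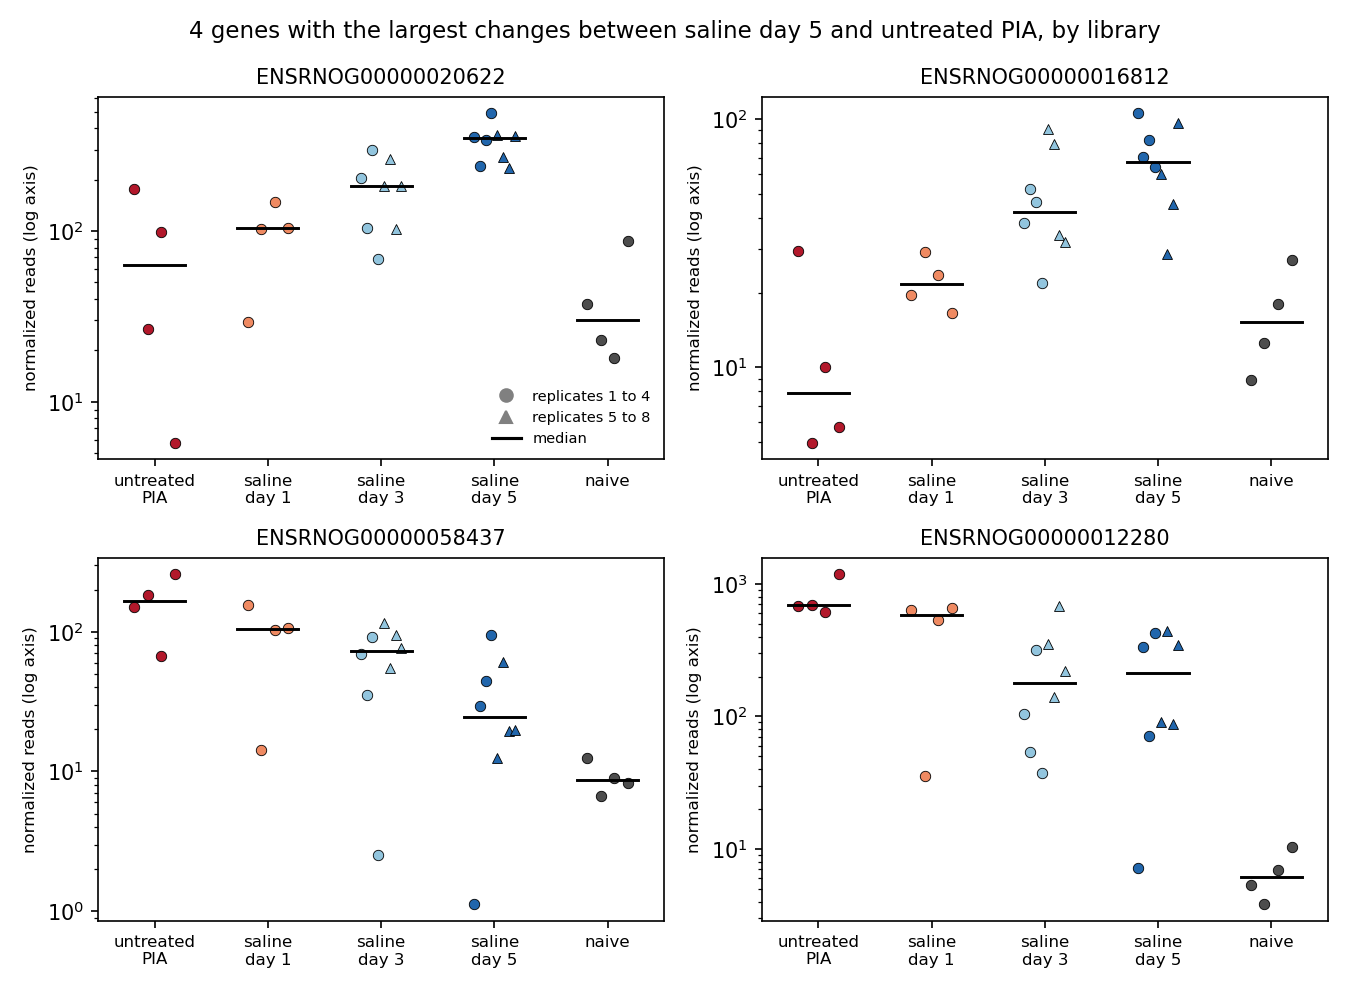
Normalized reads (log axis) of the 4 genes in every library of untreated PIA, saline days 1, 3 and 5, and naive, with circles for replicates 1 to 4, triangles for replicates 5 to 8 and lines at group medians. Day 5 medians were 348.2 and 67.3 for the 2 genes that rose and 24.7 and 211.2 for the 2 that fell, against PIA medians of 63.0, 7.89, 167.0 and 688.9.

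To describe the course of arthritis without using PIA to choose the genes, arthritis genes were taken from saline day 1 against naive. These libraries do not enter the difference between saline day 5 and PIA. That comparison called 4972 genes (38.1%, 23.4% higher and 14.7% lower) with deposited and 5673 (43.7%, 22.1% higher and 21.6% lower) with TMM scaling. Among them, 1844 were at least 2-fold higher at saline day 1 and 1478 at least 2-fold lower, or 1529 and 1752 with TMM scaling.

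Genes of the raised set were lower at saline day 5 than in PIA by a median of -0.57 log2 (quartiles -0.88 and -0.26), beside -0.22 over all genes. Their means were lower in 87.6% of genes, beside 71.9% of genes in neither set. limma called 469 of the 1844 lower (25.4%, against 7.09% of all genes) and 5 higher (0.271%, against 1.28%). Genes of the reduced set lay higher by a median of 0.30 log2 (quartiles -0.07 and 0.71), opposite in sign to the median over all genes. It was 0.19 log2 without PIA replicate 2 and 0.18 with a pseudocount of 8. Of these 1478 genes limma called 71 higher (4.8%, against 1.28%) and 6 lower (0.406%, against 7.09%).

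With TMM scaling both sets moved by similar amounts. The median was -0.39 log2 in the raised set and 0.43 log2 in the reduced set, beside -0.02 in genes of neither set. Of the raised set 18.7% were called lower and 1.31% higher, against 4.51% and 5.42% of all genes. Of the reduced set 13.8% were called higher and 0.228% lower, against 5.42% and 4.51%. Both medians were alike in the 2 replicate sets with TMM scaling, at -0.36 log2 in saline replicates 1 to 4 and -0.42 in replicates 5 to 8 for raised genes, and 0.45 and 0.47 for reduced genes. With deposited scaling they were -0.36 and -0.76 for raised genes, and 0.46 and 0.17 for reduced genes.

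Most genes of both sets were still far from naive at day 5. In the raised set the median distance from naive was 1.13 log2 at saline day 5 and 1.66 in PIA, and 1075 of 1844 genes (58.3%) were still at least 2-fold above naive. In the reduced set it was -1.34 log2 at saline day 5 and -1.68 in PIA, and 989 of 1478 (66.9%) were still at least 2-fold below. With TMM scaling 62.3% and 64.7% were still beyond 2-fold. The naive libraries also served to choose these genes, so a chance deviation in naive enlarges these distances and shares. At saline day 3 the medians were 1.27 and -1.43 log2 with deposited scaling, between those of PIA and day 5.

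Single libraries of the raised set varied more at day 5 (SD 0.195, n = 8, TMM scaling) than in PIA (SD 0.103, n = 4), while the SD of the reduced set was 0.258 at day 5 and 0.251 in PIA. With TMM scaling the raised set stood at 1.37, 1.29, 1.00, 1.48, 0.96, 1.47, 1.20 and 1.30 log2 above naive in saline day 5 replicates 1 to 8, against 1.60, 1.74, 1.56 and 1.50 in PIA replicates 1 to 4. All 8 saline libraries lay below all 4 PIA libraries, with the 2 lowest, replicates 3 and 5, from different replicate sets. The reduced set stood at -1.40, -1.15, -0.89, -1.62, -0.99, -1.52, -1.11 and -1.26 log2 in saline day 5 replicates 1 to 8, against -1.60, -2.10, -1.57 and -1.62 in PIA. Here the groups overlapped, since saline replicate 4 lay below 3 of the 4 PIA libraries. Replicates 3 and 5 were again nearest to naive, and replicates 4 and 6 were the farthest in both sets. With deposited scaling the groups overlapped in both sets, and saline replicate 4 stood at 1.75 log2 in the raised set, within the PIA range of 1.46 to 1.82. Saline replicate 7, with 24.5% of its total in genes, was the lowest there, at 0.65.

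**Figure D4:**
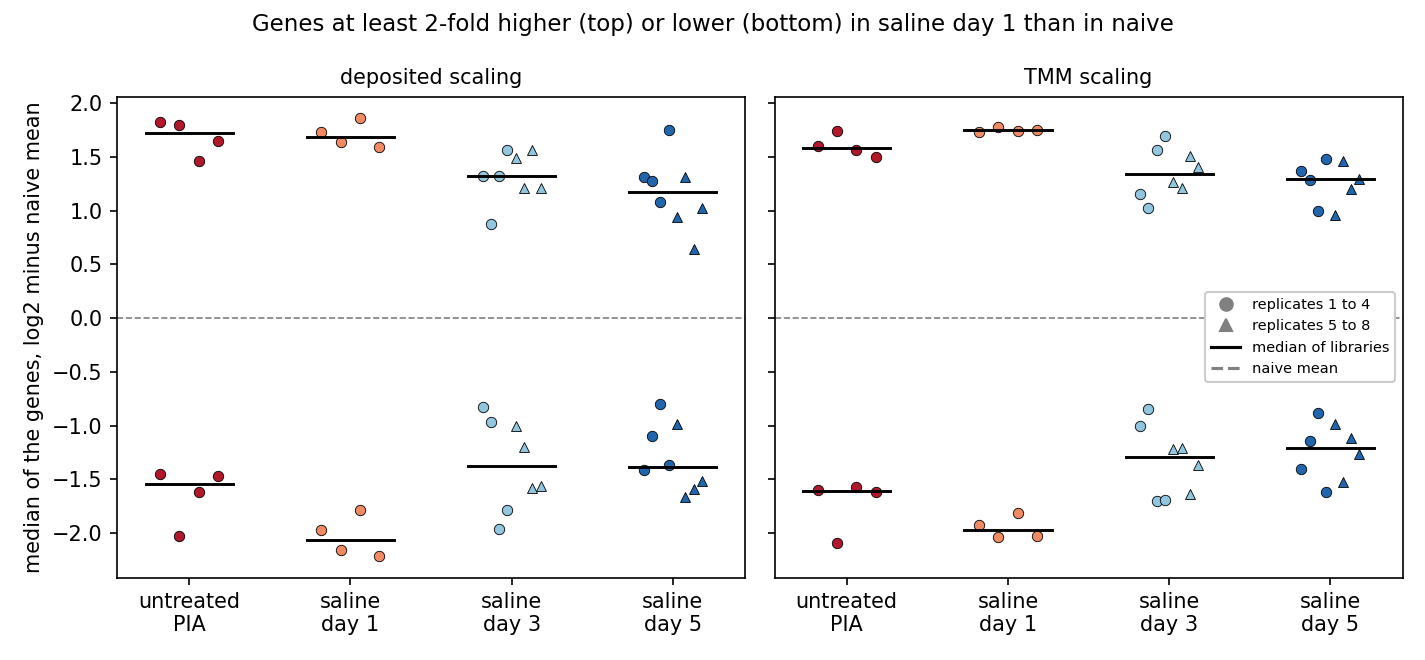
Each point is a library: the median, over genes at least 2-fold higher (above zero) or lower (below zero) at saline day 1 than in naive, of the log2 difference from the naive mean, for untreated PIA and saline days 1, 3 and 5, with circles for replicates 1 to 4, triangles for replicates 5 to 8 and lines at group medians. Saline day 1 and naive chose the genes. With TMM scaling the day 5 libraries run from 0.96 to 1.48 in the raised set and the PIA libraries from 1.50 to 1.74.

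The same question was put with saline day 1 as the earlier state, so that both groups had been injected. Saline day 5 differed from saline day 1 in 793 genes (6.07%), 327 higher (2.5%) and 466 lower (3.57%). With TMM scaling it differed in 1705 (13.1%), 903 higher (6.96%) and 802 lower (6.18%). The day 5 libraries are those of the comparison with PIA, so the counts are not independent of it. Saline day 1, like PIA, has no replicates 5 to 8. The deposited count was 123, 338 or 404 without saline day 1 replicate 1, 3 or 4. It was 517, 1444, 417, 504 and 492 without saline day 5 replicates 3, 4, 5, 7 and 8. ENSRNOG00000020622 rose against saline day 1 (1.95 log2, SE 0.597, limma adjusted p = 0.0407), as did ENSRNOG00000016812 (1.53 log2, SE 0.489, limma adjusted p = 0.0489). ENSRNOG00000058437 (-1.60 log2, SE 0.640, limma adjusted p = 0.113) and ENSRNOG00000012280 (-1.17 log2, SE 0.736, limma adjusted p = 0.345) did not pass that test. All 4 genes were chosen for large changes in the same day 5 libraries, so these p-values are not free of that choice.

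Few genes were called against PIA at the earlier saline days. Saline day 1 had 4 libraries and no replicates 5 to 8, against 8 libraries at day 5. Saline day 5 replicates 1 to 4 alone had given 44 calls, or 286 with TMM scaling. limma called 0 genes between saline day 1 and PIA (0%, with 699 at an unadjusted p under 0.05), and 0 with TMM scaling (736 at an unadjusted p under 0.05). Between saline day 3 and PIA it called 2 (0.0153%) with deposited and 81 (0.624%) with TMM scaling. In all 4 classes of called genes, the median of saline day 3 nonetheless lay nearer to that of saline day 5 than saline day 1 did. The 859 genes that fell toward naive had medians of 1.32 log2 above naive in PIA, 1.11 at saline day 1, 0.78 at day 3 and 0.48 at day 5. The 126 that rose toward naive stood at -1.58, -1.29, -0.58 and -0.32 log2 in those groups. The 41 that rose away from naive stood at -0.03, 0.34, 0.88 and 1.21, and the 67 that fell away at 0.22, -0.16, -0.32 and -0.68. The order was the same with TMM scaling in all 4 classes. PIA and day 5 values chose these genes, which favours positions between them for any other group. The day of PIA is not given, so only the order of day 1 and day 3 is free of the choice. Saline day 3 holds replicates 5 to 8 and saline day 1 does not, and the part of this in the order was not tested.

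RTD-1 groups share no library with the comparison of saline day 5 and PIA, and served to check direction. RTD-1 day 5 was set against RTD-1 day 1. These groups had received the drug for 5 days and 1 day, so time and drug exposure cannot be told apart in this check. Replicate numbers are unbalanced in the same way, since RTD-1 day 1, like PIA, has no replicates 5 to 8. Reads in genes were 40.8% to 49.9% of the library total at RTD-1 day 1 and 31.4% to 44.0% at day 5. A difference between replicate sets would enter both comparisons alike, and its part in the shares below was not tested. Of the 926 genes called lower, 923 (99.7%) were also lower at RTD-1 day 5 than at day 1, beside 71.7% of all genes. Of the 167 called higher, 155 (92.8%) were also higher, beside 28.3% of all genes. With TMM scaling 573 of 585 genes called lower (97.9%, beside 49.3% of all) and 687 of 703 called higher (97.7%, beside 50.7%) had the same direction. Genes that moved away from naive did so too: with TMM scaling 147 of 151 that rose away and 59 of 63 that fell away kept their direction. The 4 named genes changed by 2.01, 1.47, -1.55 and -1.77 log2 between RTD-1 day 5 and day 1, in the order given above. Genes are not independent of each other, and these shares were not tested.

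**Figure D5:**
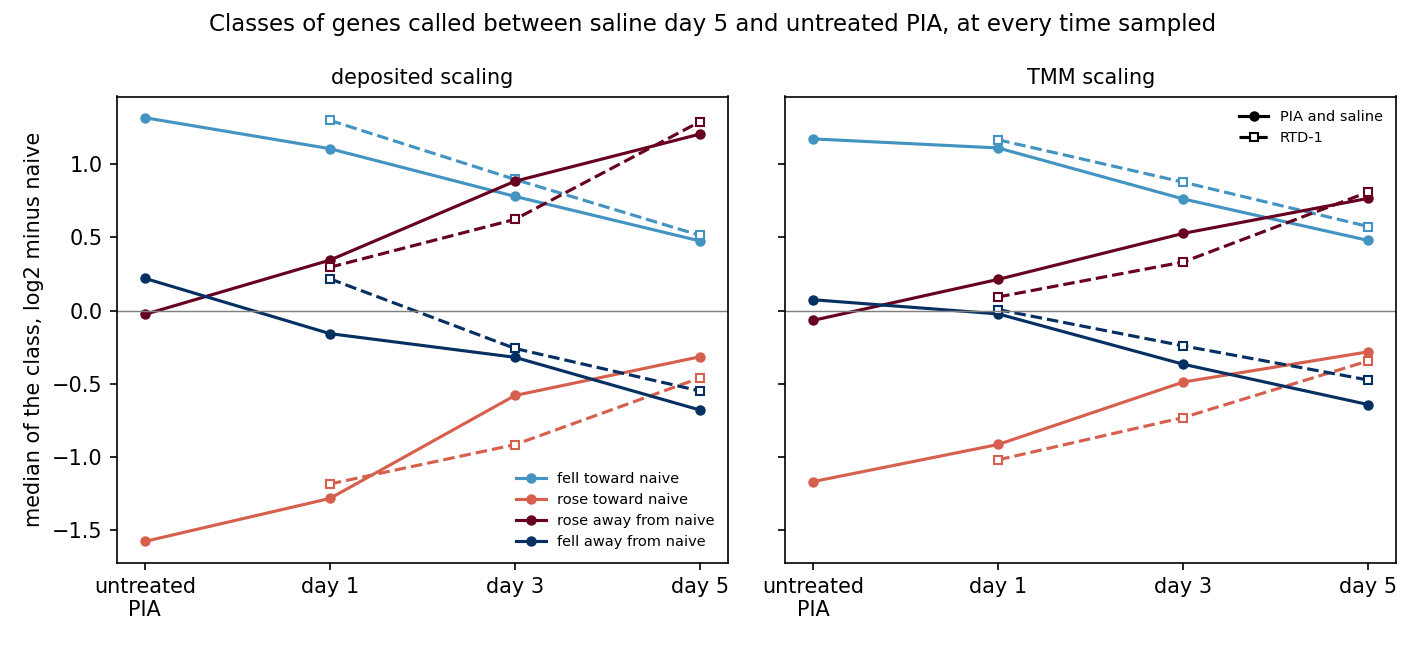
Median log2 difference from naive of the 4 classes of called genes in untreated PIA and at days 1, 3 and 5 of saline (solid lines, circles) or RTD-1 (dashed lines, open squares), in deposited and TMM scaling. PIA and saline day 5 chose the genes; at day 5 saline libraries had a median of 0.48 and RTD-1 libraries 0.51 in the class that fell toward naive, with deposited scaling.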

How the data were processed

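Single reads of 75 nt were obtained from strand-specific synovial libraries, per the labels' protocols. The authors used HISAT and DESeq, per the submitters' processing notes, which name no version. No genome build was found in the labels or the file header. The authors deposited log2 values: each is the log2 of whole reads times 1 factor per library, with 0 reads held as 0.9 of a read. Reads were recovered within a relative tolerance of 0.001 for 100% of values above 0, and the row without an identifier, at most 0.0137% of reads, was left out. Groups came from sample titles. Since the labels tie no library to an animal, the p-values reflect only how libraries vary, which may be technical. Libraries of a group differed by more than sampling noise (chi-square per degree of freedom at least 2.48).

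Reads were scaled to the median library (5.75 megareads), giving normalized reads. A gene was tested if 4 or more libraries held 10 or more of them. limma 3.58.1 in R 4.3.3, with trend and robust settings, was fitted to log2(normalized reads + 1) with 10 group means over all 58 libraries, with two-sided tests. Folds on this scale understate changes of low values. The plan had assumed reads divided by size factors, and the logarithm was undone first. TMM factors were computed from recovered reads. The comparison of saline day 1 with naive, the check against RTD-1 and TMM fits with a library left out were added after the data were seen. Named genes were the 2 with the largest rise and the 2 with the largest fall among genes called in both scalings, whose log2 values averaged 5 or more over the 12 libraries and whose sign was the same in both replicate sets. The members, lists and tests were chosen with earlier results of these data known. The scripts were tested on simulated data. Figures were drawn with matplotlib 3.10.9.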

Additional observations from a re-analysis of the deposited data

Results flagged for a closer look

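Of 42 groups of values examined for a library far from the others, 4 held one, where chance gives about 1 in 20. ENSRNOG00000012280 stood at 1182 normalized reads in PIA replicate 4, while the other 3 PIA libraries lay between 610.6 and 695.8. With TMM scaling, the genes reduced at saline day 1 had their lowest PIA median in replicate 2, at -2.095 log2 from naive, while the others lay between -1.62 and -1.57. Reads in genes were far higher in saline day 5 replicate 1, at 6415288, than in the other 7, which reached 2398902. The same held for saline day 3 replicate 4, at 5727282, while the other 7 reached 2197717.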

How the results depend on the processing

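The call of 1093 genes became 158 in a fit of the compared groups alone, 1762 with array weights, 673 with a replicate block, 44 from saline replicates 1 to 4, 2458 from replicates 5 to 8 and 286 from replicates 1 to 4 in TMM scaling. The count moving toward naive, 985, became 140, 1577, 616, 32, 1989 and 239 under those settings. Leaving out 1 library gave 250 to 2002 calls (488 to 1603 with TMM) and 228 to 1771 toward naive (412 to 1322 with TMM, and without PIA replicate 4, 620 calls and 544 toward naive). Deviations of same-numbered saline day 5 and PIA libraries had correlations of -0.0984 to 0.0906. For saline day 5 and saline day 1 they ran from -0.422 to 0.186. So few pairs cannot tell whether the numbers pair libraries. The block with TMM scaling gave 1293 calls. Against saline day 1 the 793 calls became 1705 with TMM, 1442 with TMM and without the deep libraries, 1704 with TMM and a replicate block, 279 in a fit of the compared groups alone, 1854 with array weights, 182 or 1636 from saline replicates 1 to 4 or 5 to 8, 476 or 1616 for those sets with TMM, and 123 to 1444 with 1 library left out. Between the replicate sets, 0 calls became 28 with a filter of 50 normalized reads, 78 with array weights and 0 to 252 with 1 library left out. The cause of these moves was not tested. The counts of PIA, saline day 5 and saline day 1 against naive stayed within 1.5 times, and both medians of the arthritis genes kept their sign and stayed within 1 SD of the libraries, in every alternative tried. The 4 named genes kept their direction throughout. The planned medians of gene lists were not run, since no identifier had a symbol. Depth limits calls of low genes.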

Other observations

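The median over genes of the SD of log2 values was 0.46 at saline day 5, 0.34 in PIA and 0.40 in naive with deposited scaling, and 0.38, 0.31 and 0.31 with TMM scaling. Within saline replicates 1 to 4 it was 0.38 and within replicates 5 to 8 it was 0.42 with deposited scaling, and 0.35 in both with TMM scaling. RTD-1 day 5 libraries covered much of the range of saline day 5 libraries on the arthritis genes: with TMM scaling the raised set ran from 0.81 to 1.45 log2 above naive with RTD-1 and from 0.96 to 1.48 with saline.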
